A study of Mus musculus with 3 samples.

Results

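Dorsal excitatory neurons of the lumbar spinal cord were examined as the nuclei that carry the deposited cell type label neuron together with the sub-type label DE. They number 3089, which is 35.1% of the 8800 neurons other than motor neurons and 21.1% of all 14662 nuclei. Neurons of the dorsal horn are the first relay for touch, pain, itch and temperature, and the excitatory ones among them release glutamate, which the vesicular transporter encoded by Slc17a6 loads into synaptic vesicles. During development their fate is set by transcription factors such as Lmx1b and Tlx3, whereas Pax2 is needed by their inhibitory neighbours, which release GABA and glycine. In the adult they are a mosaic of populations that differ in laminar position and in the neuropeptides and peptide receptors they make.

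Nuclei came from 12 mice aged 90 days, 3 of each combination of sex and genotype. The transgenic animals were B6.Cg-Tg(SOD1*G93A)1Gur/J mice, called SOD1G93A here, which carry in high copy number a human SOD1 gene with a mutation of familial amyotrophic lateral sclerosis. Their littermates without the transgene were C57BL/6J (WT), and no treatment was given to either group. The transgene is expressed in all cell types and not in neurons alone, nuclei hold little of the cytoplasmic RNA, and frozen lumbar tissue was the only level sampled. Each of 3 pools, A, B and C, held 1 mouse of every sex and genotype, so that the pool is a batch shared by 4 mice, and the mouse is the replicate in all tests.

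Each mouse gave 100 to 579 dorsal excitatory nuclei and 1142070 to 7097160 unique molecular identifiers (UMIs, single captured RNA molecules) in them. The median nucleus had 10188 UMIs and 3204 genes. Across pools, 15 cell barcodes occurred in 2 libraries, 0 of them with both nuclei in this population and 7 with 1 nucleus in it. Levels are CPM, the UMIs of a gene scaled to 1000000 UMIs over the dorsal excitatory nuclei of a mouse, unless another population is named.

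The labels matched the markers of the population. In WT mice Slc17a6 was at 121 ± 6.82 CPM (SD, n = 6; 111 to 129), beside 11.3 ± 7.11 in dorsal inhibitory (DI), 90.8 ± 15.7 in mid excitatory (ME), 109 ± 9.14 in ventral excitatory (VE) and 105 ± 20.8 in ventral cholinergic (VC) neurons. Slc17a6 thus set dorsal excitatory neurons apart from inhibitory sub-types but not from the other excitatory or the cholinergic ones, whose ranges overlapped with theirs. Ebf2, a transcription factor of the early B cell factor family, was at 972 ± 140 CPM (799 to 1124), and the next sub-type, dorsal inhibitory neurons, at 114 ± 22.9. No mouse of any other sub-type reached that range for Ebf2. These levels are a description without a test, since the sub-types had been assigned from the same transcriptomes.

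Of 8 genes listed for excitatory identity, 7 were highest in dorsal excitatory neurons among the 8 named sub-types, and of 10 genes of inhibitory identity 0 were. Among the 5876 genes at 20 CPM or more in dorsal excitatory neurons of WT mice, 847 were. That is an unlike set, as only 5 of the 8 and 1 of the 10 reached 20 CPM. Lmx1b was at 119 ± 20.8 CPM, against 42.9 ± 12.2 in mid excitatory and 60.1 ± 29.0 in ventral cholinergic neurons and at most 12.7 in the other named sub-types. Ebf1 stood at 3451 ± 333 CPM and at 1839 ± 227 in dorsal inhibitory neurons, above the 382 and 410 of mid and ventral excitatory neurons. Ebf3 was likewise higher in dorsal inhibitory (348 CPM) than in mid and ventral excitatory neurons (221.5 and 93.6). Both thus were shared with inhibitory sub-types. Slc17a8 and Tlx3, also among the 7, were low at 3.16 and 7.39 CPM. The eighth gene, Slc17a7, had 3 UMIs in all dorsal excitatory nuclei. On the inhibitory side, Gad1, which makes GABA, was at 6.73 ± 2.87 CPM in contrast to 119 ± 16.3 in dorsal inhibitory neurons, and Pax2 at 7.70 ± 4.26 in contrast to 208 ± 19.3. Slc6a5, the glycine transporter of glycinergic terminals, was at 10.6 ± 2.86 CPM, and at 152 ± 25.4 in ventral inhibitory (VI) neurons. The inhibitory genes were low in dorsal excitatory neurons but not absent.

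**Figure D1:**
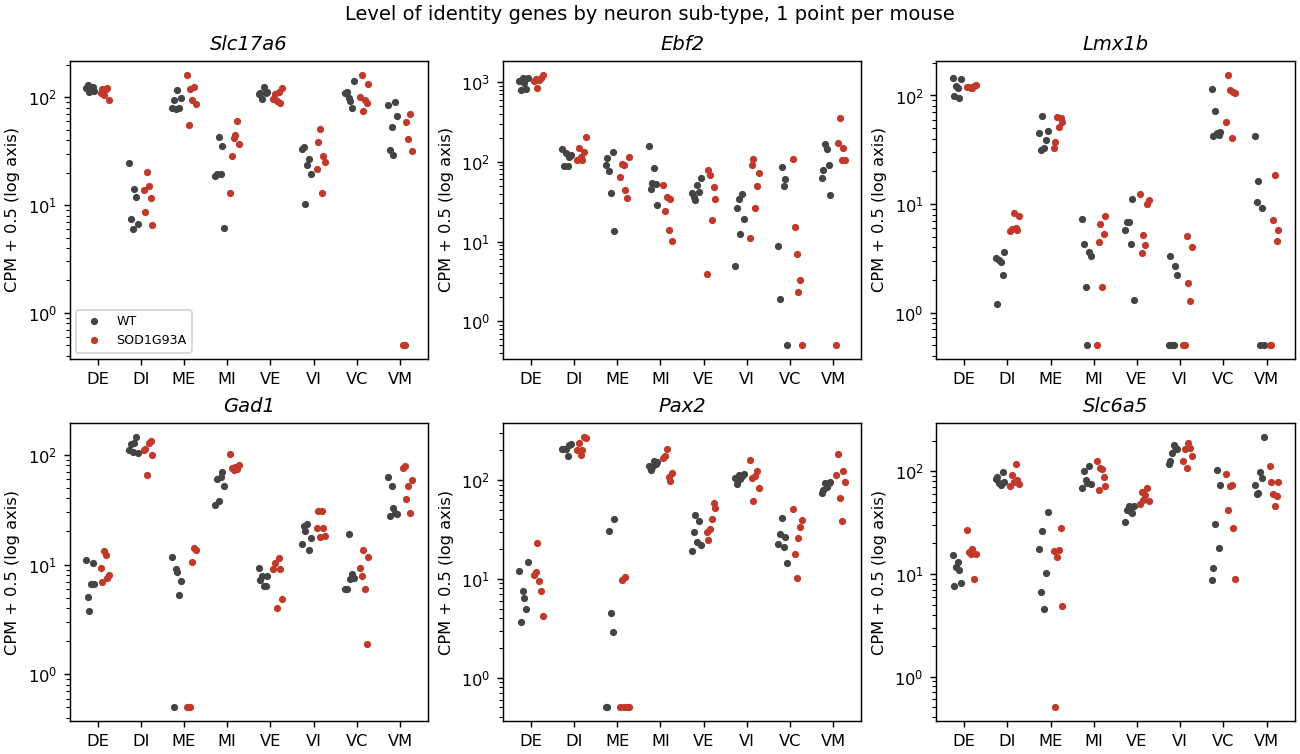
Level of 6 identity genes (CPM + 0.5, log axis) in 8 neuron sub-types (D, M and V for dorsal, mid and ventral; E, I, C and the second M for excitatory, inhibitory, cholinergic and mixed), with 1 point per mouse, dark for WT and red for SOD1G93A. Ebf2 and Lmx1b are highest in DE, Slc17a6 is shared with ME, VE and VC, and Gad1, Pax2 and Slc6a5 are low in DE, where their WT means are 6.73, 7.70 and 10.6 CPM.

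Among the 5876 genes at 20 CPM or more in dorsal excitatory neurons of WT mice, 847 had their highest mean in this sub-type, 58 of them at more than 2 times the next sub-type and 23 at more than 3 times. Myo5b, a myosin motor of recycling endosomes, had the highest ratio, with 187 ± 27.7 CPM against 15.4 in mid inhibitory neurons (12.2-fold). Gmnc, known from the control of multiciliated cells, followed with 34.3 ± 4.41 CPM and a ratio of 9.84, and Ebf2 with 8.55. Gm6878 and 4930438E09Rik lie antisense to Ebf2 within its span on chromosome 14 (mm10), at 14:67304888-67314711 and 14:67332042-67397742. Whether counting used the strand is not given in the sources used here, so their reads and those of Ebf2 cannot be told apart.

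The rest of the 15 genes with the highest ratios covered a range of functions. Cpne8, a calcium-dependent phospholipid-binding protein, was at 394 ± 36.0 CPM (5.61-fold above the next sub-type), and Sox5, a transcription factor, at 788 ± 93.9 (3.77-fold). Prrxl1, a homeodomain factor required for dorsal horn excitatory neurons to develop, was at 38.9 ± 2.71 CPM (4.00-fold), and Skor2, a transcriptional corepressor, at 28.2 ± 6.01 (3.81-fold). The peptides Nts and Nmu, the synaptic organiser C1ql3, the carbonic anhydrase Car12, the channel subunit Kcng2 and Ccdc172 completed the list, with ratios between 4.20 and 5.52. For 12 of the 15 genes the lowest of the 12 mice lay above every mouse of the DI, ME, MI, VE and VI sub-types. The exceptions were Nts, Car12 and C1ql3. Ventral cholinergic (VC) and ventral mixed (VM) neurons were left out of this check. The next sub-type was VM for Gmnc, Gm6878 and 4930438E09Rik and VC for Nmu and Skor2.

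Of 18 transcription factors that divide the cord into dorsal and ventral territories, dorsal excitatory neurons were among the lowest 3 of 8 sub-types for 8. How many of all genes held this rank was not counted. Foxp2 was at 6.93 ± 1.90 CPM in contrast to 198 ± 58.0 in ventral inhibitory neurons, and Esrrg, an orphan nuclear receptor, at 171 ± 24.6 in contrast to 1400 ± 136. Highest in dorsal excitatory neurons were 2 of the 18, Maf at 98.9 ± 9.43 CPM and Rora at 2378 ± 310, and Maf was nearly as high in dorsal inhibitory neurons (96.5 ± 27.6). The ranges of both sub-types overlapped for Maf. Among the 5876 genes at 20 CPM or more in dorsal excitatory neurons of WT mice, 847 were highest there. The lists are an unlike set beside that share, as only 11 of the 18 factors and 7 of 20 dorsal horn neuropeptide genes reached 20 CPM. Of 20 dorsal horn neuropeptide genes, 9 were highest in dorsal excitatory neurons, of which 7 reached 10 CPM: Tac1, which encodes substance P (29.6 ± 9.59 CPM), Tac2, which encodes neurokinin B (38.3 ± 13.3), Sst (47.7 ± 11.9), Cck (27.2 ± 8.24), Nmu (48.3 ± 14.8), Nts (42.0 ± 12.3) and Calca (10.2 ± 4.99). Npy, a peptide of inhibitory neurons, was at 1.77 ± 0.904 CPM in dorsal excitatory and 17.6 ± 8.30 in dorsal inhibitory neurons.

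The label rests on a mapping to published spinal cord nuclei. In that mapping, 2962 of the 3089 nuclei (95.9%) were assigned to 1 of 16 dorsal excitatory classes, 88 to neurons without a class and 39 to other classes. The deposited clustering, made from the same transcriptomes, placed 3077 nuclei in 17 clusters of at least 50 dorsal excitatory nuclei, and 12 nuclei in 11 further clusters. Most of the 17 clusters matched 1 reference class. In cluster 38, 99.1% of nuclei had the same class, in cluster 12 98.7% and in cluster 29 98.2%, whereas cluster 17 (59.4%) and cluster 47 (52.2%) were mixed.

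The clusters differed in their neuropeptides, given here as CPM of all UMIs of a cluster against all other dorsal excitatory nuclei, with no test because these genes also made the clusters. Nmu was at 405 CPM in cluster 12 (379 nuclei) and 6.02 in the rest, and Tac2 in the same cluster at 249 and 12.6. Nts, the neurotensin gene, was at 659 CPM in cluster 32 (152 nuclei) and 11.9 elsewhere, together with Calca, which encodes CGRP (99.2 and 7.70). Trh and Pdyn, at 1.23 and 2.80 CPM over the whole population in WT mice, were confined to single clusters at the level of 20 CPM, Trh to cluster 38 (40.3 CPM) and Pdyn, the dynorphin precursor, to cluster 18 (39.7 CPM). Both were uneven between mice, at 0 to 91.8 CPM for Trh over the 5 mice with 10 or more nuclei in its cluster and at 0 to 187 CPM for Pdyn over 9.

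Other peptides were shared among clusters. Tac1 and Penk, the enkephalin precursor, were both highest in cluster 13 (129 and 130 CPM), and Penk was above 20 CPM in 7 clusters. Cck was at 212 CPM in cluster 29 and 106 in cluster 38. Sst was the most widespread, above 20 CPM in 10 clusters, with 174 CPM in cluster 38, 152 in cluster 37 and 122 in cluster 12. Grp, a peptide of itch circuits, had 52.7 CPM in cluster 28 and 33.1 in cluster 19.

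The sequences before the start sites of Nmu, Nts and Sst are printed because these genes mark single clusters or sets of clusters. Each run is the 250 bases upstream of the RefSeq start in GRCm38.p6, 5′ to 3′ on the strand of the gene (minus for all), at chr5:76363778-76364027 for Nmu, chr10:102490419-102490668 for Nts and chr16:23890845-23891094 for Sst. Capitals mark matches on either strand to TGACGTCA (the cyclic AMP response element, CRE), TATAAA (the TATA box) and GGGCGG (the GC box), none of which overlap.
Nmu: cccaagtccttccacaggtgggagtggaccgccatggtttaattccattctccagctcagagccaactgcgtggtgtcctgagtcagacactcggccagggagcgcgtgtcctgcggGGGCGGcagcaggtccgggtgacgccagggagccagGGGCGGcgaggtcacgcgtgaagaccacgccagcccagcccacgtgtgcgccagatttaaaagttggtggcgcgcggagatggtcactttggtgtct
Nts: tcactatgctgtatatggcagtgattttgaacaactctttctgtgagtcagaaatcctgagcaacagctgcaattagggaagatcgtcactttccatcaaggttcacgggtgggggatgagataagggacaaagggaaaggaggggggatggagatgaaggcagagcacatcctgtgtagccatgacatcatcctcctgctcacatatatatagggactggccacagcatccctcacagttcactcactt
Sst: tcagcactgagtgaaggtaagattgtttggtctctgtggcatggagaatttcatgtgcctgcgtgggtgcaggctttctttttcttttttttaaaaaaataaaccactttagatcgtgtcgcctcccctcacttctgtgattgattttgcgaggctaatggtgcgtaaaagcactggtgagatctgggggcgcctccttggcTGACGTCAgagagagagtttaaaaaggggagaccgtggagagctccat
Sst had 1 CRE, 48 to 41 bases before the start, and 1.55% of the 32851 promoters of the same length held one. Nmu had 2 GC boxes, where 32.7% of promoters held at least 1, and a GC content of 64%, against a median of 52.4%. Nts had no match to the 3 motifs in this window.

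Receptors followed the clusters as well. Nmur2, the neuromedin U receptor, was at 321 CPM in cluster 19 (259 nuclei) and 22.2 elsewhere, a different cluster from that of its ligand Nmu. Grpr, the receptor for gastrin-releasing peptide, was highest in cluster 23 (84.1 CPM), and Tacr1, the substance P receptor, in cluster 26 (100.5 CPM), with 10 clusters above 20 CPM. Oprm1, the mu opioid receptor, reached 472 CPM in cluster 28 and was above 20 CPM in 15 clusters. Serotonin receptors divided the population, with Htr4 at 508 CPM in cluster 13 and Htr2c at 1579 CPM in cluster 25, where it was 7.25 times the level of the other nuclei.

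Further leading genes gave each cluster a signature. Cluster 13 (358 nuclei) was led by Unc5cl, Nos1, which makes nitric oxide, and Lmo3 (1135 CPM against 86.5 elsewhere). Cluster 17 (315 nuclei) was led by Col27a1, Maf (472 against 46.5 CPM) and Tnfaip8l3, and cluster 19 by Gm6213, C530044C16Rik and Gm5086, with Reln at 903 and Car12 at 166 CPM. Reelin, the Reln product, is a secreted guidance protein, and it was highest in cluster 28 (172 nuclei; 1697 CPM), which was led by Trhr, Hmga2 and Bnc2. Cluster 29 (170 nuclei) was led by Mgp, Dach2 and AC129186.1 and had Cpne4 at 3609 CPM against 134 elsewhere. Cluster 38 (106 nuclei) was led by Car8, AC161816.1 and Masp1.

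The remaining clusters were led by Gm12130, Gm12128 and the retinoic acid enzyme Aldh1a2 (cluster 18), Ddr2, Grpr and Gda (cluster 23), Gm10754, Eya4 and Slit3 (cluster 26), Megf11, Col14a1 and Gm13912 (cluster 25), Nts, Fam198b and Rspo2 (cluster 32), 2600014E21Rik, Qrfpr and Cadps2 (cluster 35), C1qtnf7, Gm15866 and Egflam (cluster 37), Cnih3, Rorb and Ror2 (cluster 46) and Il1rapl2, Adra1a and Cnih3 (cluster 47). Not all clusters carried the defining pair of markers. Slc17a6 was between 85.2 and 209 CPM in all 17, but Ebf2 was at 31.3 CPM in cluster 18 and 10.8 in cluster 25, where Slc17a6 was at 209 and 131 CPM. In cluster 18, 70.9% of all nuclei carried the dorsal excitatory label.

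Cluster 6 stood apart. Of its 593 nuclei, 9.61% were labelled dorsal excitatory, and 43.9% of these 57 were mapped to neurons without a class. Its leading genes were Tcf7l2, Cnksr3 and C030029H02Rik. The oligodendrocyte genes Mbp and St18 were at 457 and 680 CPM in it, each the highest of the 17 clusters, beside cluster medians of 153 and 101. Gad1, at 24.0 CPM, was also highest there. Per the study's methods, marker genes did not at first define this cluster clearly, and its nuclei lay among clusters of many other cell types. The authors therefore sub-clustered it and assigned its parts to several cell types.

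**Figure D2:**
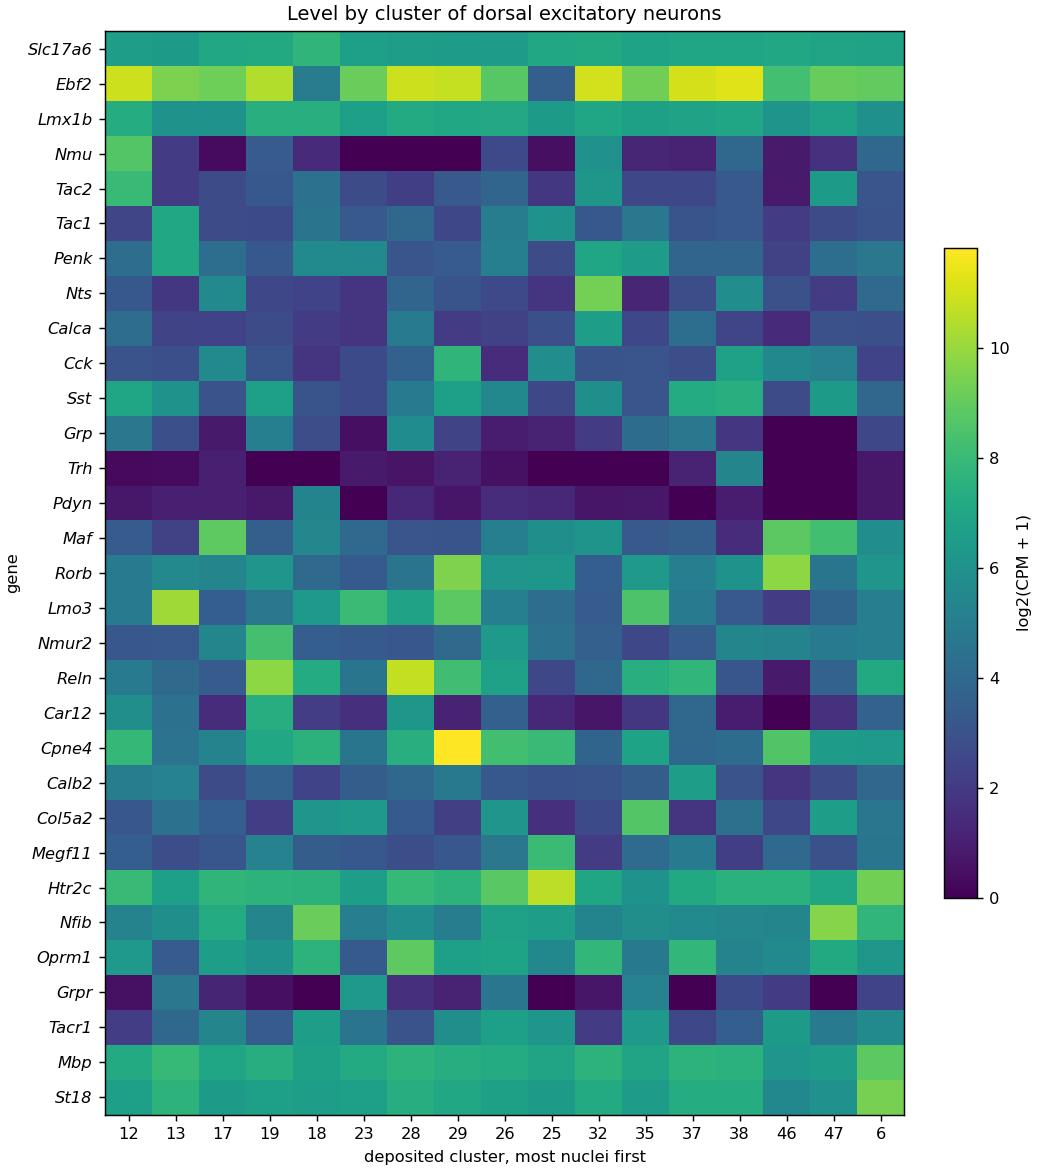
Level of 31 genes (rows, log2(CPM + 1) as colour) in the 17 deposited clusters of dorsal excitatory neurons (columns, most nuclei first), over all 12 mice. Slc17a6 is even, Ebf2 is dark in clusters 18 and 25, peptides such as Nmu, Nts, Trh and Pdyn light up 1 or few clusters, and Mbp and St18 are brightest in cluster 6.

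The first comparison of genotypes asked whether dorsal excitatory neurons took up a different share of neurons. In WT mice they made up 30.6% (lowest), 36.7% (median) and 38.4% (highest) of neurons, and in SOD1G93A mice 30.5%, 34.6% and 44.3%. The ranges overlapped almost wholly, and the share was higher in the SOD1G93A mouse in 1 of the 6 pairs of the same sex and pool. edgeR's quasi-likelihood test gave a log2 fold change of 0.02 (FDR = 0.900 over 9 sub-types), and 0% of the sub-types passed 0.05, with 0 at an unadjusted p under 0.05. As a share of all nuclei of the mouse the direction turned, to a log2 fold change of -0.26 (edgeR FDR = 0.211), lower in 5 of 6 pairs. The median depth of a nucleus overlapped between genotypes, at 8024 to 11413 UMIs in WT and 8561 to 12913 in SOD1G93A mice (difference of means 226, exact two-sided permutation test, p = 0.792).

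Within the population, the shares of 3 of the 17 clusters (17.6%) differed between genotypes by edgeR's quasi-likelihood test at an FDR of 0.05. Cluster 19, the cluster with high Nmur2 and Reln, made up 5.36% (lowest), 7.35% (median) and 8.29% (highest) of dorsal excitatory nuclei in WT and 8.41%, 10.5% and 13.0% in SOD1G93A mice. These ranges did not overlap, which held for 5.88% of the clusters. The share was higher in 6 of 6 pairs, by 0.57 on the log2 scale (edgeR FDR = 0.0410).

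Cluster 17, the cluster with high Maf, went the other way. Its share was 7.66%, 11.7% and 14.5% (lowest, median and highest) in WT and 2.94%, 7.91% and 9.20% in SOD1G93A mice, with overlapping ranges, and it was lower in 5 of 6 pairs by a log2 fold change of -0.62 (edgeR FDR = 0.0326). Cluster 6 was at 0.552% to 1.73% in WT and 0.654% to 7.84% in SOD1G93A mice, higher in 6 of 6 pairs (log2 fold change 1.72, edgeR FDR = 0.0410), and rested on 20 and 37 nuclei. Its log2 fold change ran from 1.01 (SOD1G93A male of pool B dropped) to 2.42 (SOD1G93A female of pool B dropped). As a cluster of mixed cell types, it is not read here as a defined dorsal excitatory class. Cluster 25, the cluster with high Htr2c, had a log2 fold change of -0.66 and did not pass (edgeR FDR = 0.0572). limma on the log2 odds called 0 of the 17 clusters, with adjusted p of 0.0878, 0.0837 and 0.0837 for clusters 17, 19 and 6, and 0 clusters passed with edgeR without the female WT, male WT or female SOD1G93A mouse of pool C or the male SOD1G93A mouse of pool B. The count was 1 when either mouse of pool A among the SOD1G93A mice, the WT female of pool A or the WT male of pool B was dropped, and 2 for the WT female of pool B or the WT male of pool A.

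**Figure D3:**
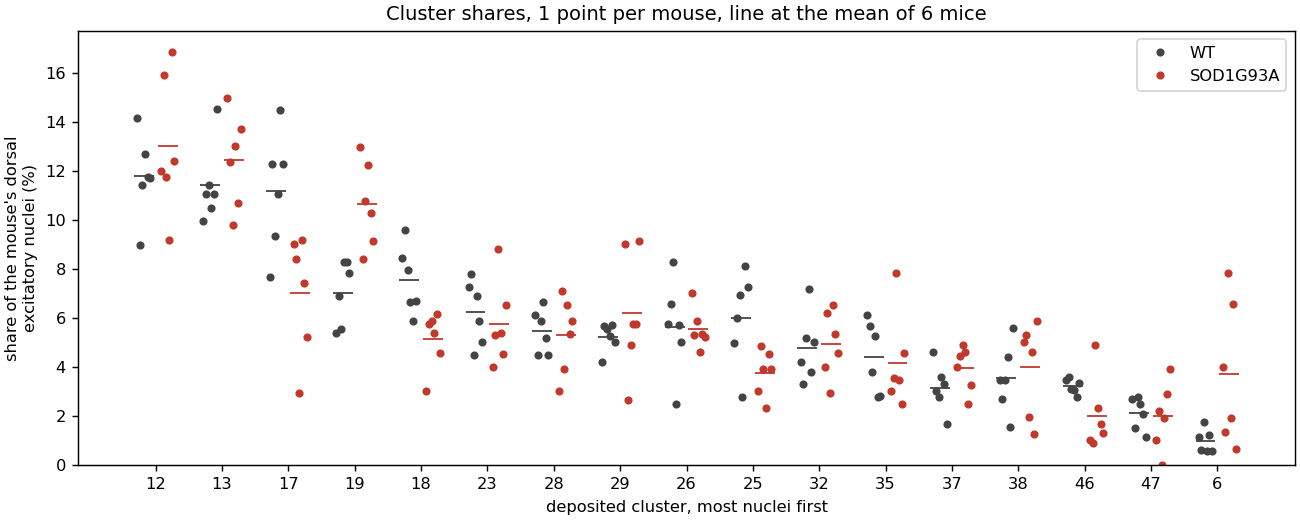
Share of each mouse's dorsal excitatory nuclei (%, vertical axis) in the 17 deposited clusters (horizontal axis, most nuclei first), with 1 point per mouse, dark for WT and red for SOD1G93A, and a line at the mean of 6 mice. Cluster 19 has no overlap (5.36% to 8.29% against 8.41% to 13.0%), and cluster 17 is lower and cluster 6 higher in SOD1G93A mice.

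Expression was then compared between genotypes on the UMI sums of the 12 mice. Of 12175 genes tested with limma-voom, 4 were differentially expressed at an FDR of 0.1 (0.0329%), with Sod1, Xpo1 and Ninj2 higher and Flrt2 lower in SOD1G93A mice. At an unadjusted p under 0.05, 816 genes differed (6.7%), 484 higher (3.98%) and 332 lower (2.73%), and the median log2 fold change over all genes was 0.0042. edgeR called 3 genes (0.0246%) and DESeq2 26 (0.214%). The count moved when single mice were dropped, to 56 (WT female, pool A), 44 (WT male, pool B), 29 (SOD1G93A female, pool B), 19 (SOD1G93A male, pool C) and 7 (SOD1G93A female, pool A).

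Sod1, the endogenous counterpart of the transgene at chr16:90220754-90226329 (mm10), checks the genotype labels, as reads of the human transgene may be counted in it. Its level in WT mice was 32.9 (lowest), 42.3 (median) and 118 CPM (highest), and in SOD1G93A mice 75.6, 98.2 and 238 CPM. The ranges overlapped across pools because both WT mice of pool A, at 118 and 87.0 CPM, were above the WT mice of pools B and C (32.9 to 47.2 CPM). Within each pool and sex the SOD1G93A mouse was higher, in 6 of 6 pairs, by 1.13 on the log2 scale (SE 0.12, limma FDR = 7.475e-04). Without the pool term it did not pass (limma FDR = 0.740). The level was also higher in each of the 17 clusters, by 1.65 to 4.03 times.

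Xpo1 encodes exportin 1, the receptor that carries proteins with a nuclear export signal out of the nucleus, and lies at chr11:23256041-23298249 (mm10). Its level was 65.1, 77.7, 73.0, 72.3, 66.9 and 67.5 CPM in WT mice (females of pools A, B and C, then males), and 108, 95.8, 113, 97.1, 108 and 99.2 CPM in SOD1G93A mice in the same order. The ranges did not overlap, which held for 0.304% of all genes tested. The log2 fold change was 0.53 (SE 0.08, limma FDR = 0.0146). Every one of the 17 clusters had a higher level in SOD1G93A mice, by 1.12 times (cluster 26) to 2.40 times (cluster 37), with a median ratio of 1.41.

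Flrt2, which encodes a leucine-rich repeat membrane protein that binds latrophilins and Unc5 receptors in axon guidance and synapse formation, lies at chr12:95692226-95785215 (mm10). In the same order of mice, its level was 161, 145, 146, 135, 188 and 173 CPM in WT and 99.8, 93.2, 74.9, 97.5, 97.7 and 103 CPM in SOD1G93A mice. Here too the groups did not overlap, and all SOD1G93A mice were lower, with a log2 fold change of -0.76 (SE 0.10, limma FDR = 0.00249). Flrt2 was uneven over the clusters, with 363 CPM in cluster 17, 306 in cluster 18 and 284 in cluster 29, but 25.8 CPM in cluster 23. It was lower in SOD1G93A mice in 15 of the 17 clusters, from 407 to 227 CPM in cluster 17, and not in clusters 13 and 19, where it was low (28.7 and 25.9 CPM in WT). Since the share of cluster 17 differed, levels were also computed with equal cluster shares in every mouse. Flrt2 then had a log2 fold change of -0.56 (SE 0.09, limma FDR = 0.0113), and Xpo1 0.50 (SE 0.08, limma FDR = 0.0129).

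The 250 bases upstream of the RefSeq starts of these genes (GRCm38.p6, plus strand for both, at chr12:95691976-95692225 for Flrt2 and chr11:23255791-23256040 for Xpo1) are printed because both genes kept their call in all fits on the full set of nuclei and without each mouse in turn. With 100 nuclei drawn per mouse, Flrt2 was called in 15 and Xpo1 in 14 of 20 draws. As above, capitals mark the same 3 motifs.
Flrt2: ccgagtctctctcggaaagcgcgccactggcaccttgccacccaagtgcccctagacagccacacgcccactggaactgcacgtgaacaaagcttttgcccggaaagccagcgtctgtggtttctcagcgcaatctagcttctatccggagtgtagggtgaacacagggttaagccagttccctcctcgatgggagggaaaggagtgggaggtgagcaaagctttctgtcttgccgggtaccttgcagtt
Xpo1: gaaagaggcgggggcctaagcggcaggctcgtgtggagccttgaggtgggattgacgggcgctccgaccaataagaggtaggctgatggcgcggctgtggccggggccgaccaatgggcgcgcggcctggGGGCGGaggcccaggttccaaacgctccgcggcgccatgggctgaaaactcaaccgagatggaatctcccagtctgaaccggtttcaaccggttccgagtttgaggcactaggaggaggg
Xpo1 had 1 GC box and a GC content of 65.2%. Flrt2 had no match to the 3 motifs in this window and a GC content of 57.2%.

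Ninj2 encodes a small adhesion protein, ninjurin 2. Its level was 15.9, 5.53, 10.9, 7.35, 6.62 and 9.64 CPM in WT and 14.9, 9.47, 41.1, 22.2, 9.72 and 30.0 CPM in SOD1G93A mice, in the order above. The ranges overlapped, with 5 of 6 pairs higher and the female SOD1G93A mouse of pool C highest. The log2 fold change was 1.16 (SE 0.21, limma FDR = 0.0700), and edgeR did not call it (FDR = 0.152). The limma call was lost when any of 7 of the 12 mice was dropped (FDR up to 0.277), namely the WT females of pools B and C, the WT males of pools A and C, the SOD1G93A female of pool C and the SOD1G93A males of pools A and B. It was made in 9 of 20 draws of 100 nuclei per mouse. In WT mice oligodendrocytes had 182 CPM of Ninj2 and oligodendrocyte precursors 190.5, beside 8.44 in dorsal excitatory neurons, and within these neurons it was highest in cluster 6 (77.1 CPM). Ninj2 was higher in SOD1G93A mice in 13 clusters and lower in 4, with a ratio of 1.06 in cluster 6. Its log2 fold change with cluster 6 removed was 1.14 (limma FDR = 0.0137). Without the 309 nuclei (10%) richest in oligodendrocyte markers, its log2 fold change was -0.17 (SE 0.34, limma FDR = 0.967). This filter removed 4.49% to 13.8% of the nuclei of a WT mouse and 7.08% to 30.4% of those of a SOD1G93A mouse, most in the female of pool C. Since it picks nuclei by oligodendrocyte markers, a fall of Ninj2 can follow from the filter itself.

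**Figure D4:**
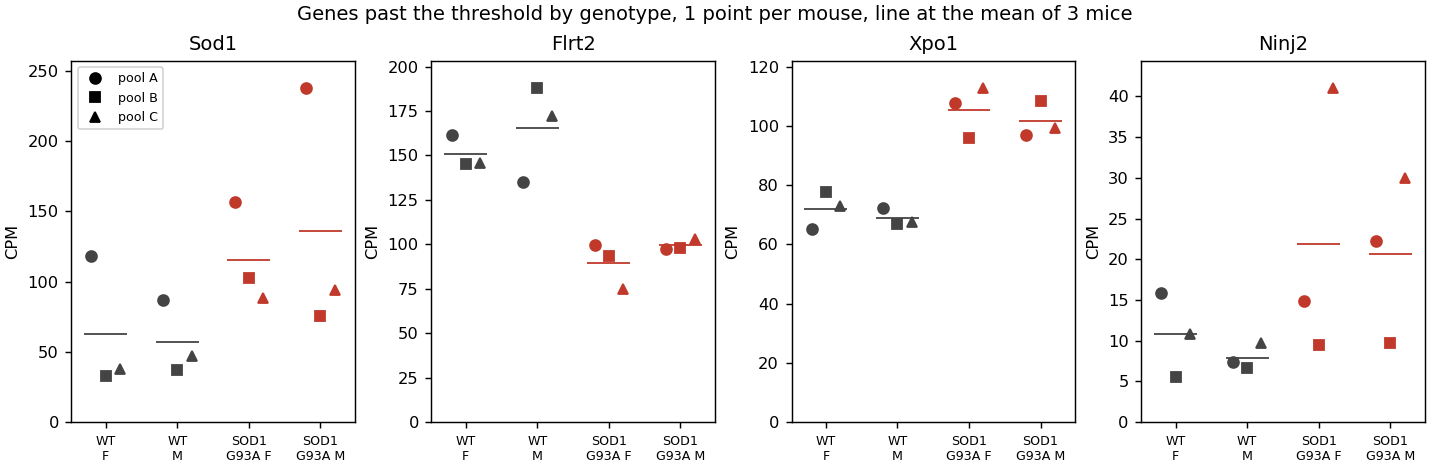
Level (CPM, axes from 0) of the 4 genes past the threshold by genotype, with 1 point per mouse (F female, M male; circle, square and triangle for pools A, B and C) and a line at the mean of 3 mice. Flrt2 (135 to 188 against 74.9 to 103 CPM) and Xpo1 (65.1 to 77.7 against 95.8 to 113 CPM) do not overlap between genotypes, while Sod1 and Ninj2 do.

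The genes next in line did not pass the threshold in the main limma fit and are given as values. DESeq2 called Ttyh2, Gm28928, Kcnh7, Itpk1, Tspan18, Dgkb, Gm13905 and Gm30382 among them (FDR from 0.06845 to 0.0991). Without cluster 6, limma called the same genes and also Il33 and Vwc2 (FDR from 0.0106 to 0.07375). With a block for each pair of the same sex and pool, which called 104 genes, all 13 named here and in the next paragraph passed, with limma FDR from 0.00984 (Gm13905) to 0.0779 (Vwc2 and Nell2). These genes had been chosen by the same pairs, so their passes are favoured by the selection and are no separate support. Among genes higher in 6 of 6 pairs, which held for 2.43% of all genes, those of smallest p after Sod1 and Xpo1 were Nde1, Gm13905, Il33, Itpk1, Tspan18 and Ttyh2, with limma FDR between 0.104 and 0.178. Il33, a cytokine stored in nuclei, was at 10.3 ± 3.93 CPM in WT and 18.1 ± 5.50 in SOD1G93A mice, and Itpk1, an inositol phosphate kinase, at 46.7 to 69.0 and 73.1 to 94.2 CPM, without overlap. Of these 6 genes, 4 had their highest WT level in oligodendrocytes (Nde1, Gm13905, Itpk1 and Ttyh2). Il33 was highest in microglia (135 CPM) and at 118 CPM in oligodendrocytes. Tspan18, a tetraspanin, was not of this kind, with 34.8 CPM in dorsal excitatory neurons and 8.26 in oligodendrocytes. It was at 35.2 ± 1.54 CPM in WT and 50.5 ± 7.60 in SOD1G93A mice and was highest in cluster 19 (201 CPM). With equal cluster shares its log2 fold change was 0.24 (limma FDR = 0.946), beside 0.53 otherwise. Without the nuclei richest in oligodendrocyte markers, Il33 was at 0.15 and Ttyh2 at 0.38 (limma FDR = 0.967 and 0.8995), beside 0.89 and 0.99 otherwise. Itpk1 was at 0.34 or more in all 13 other settings, this filter among them, beside 0.44 otherwise. Gm13905 and Nde1 were at 1.02 and 1.27 or more in the 11 and 9 other settings that tested them. The filter on oligodendrocyte markers is not among these settings for either gene, and the removal of cluster 6 is not among them for Nde1. Their levels under that filter are therefore not known.

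Among genes lower in 6 of 6 pairs (2.05% of all genes), those of smallest p after Flrt2 were Gm30382, Kcnh7, Gm28928, Vwc2, Dgkb, Nell2 and Slco1a4, with limma FDR between 0.179 and 0.183. Of the 7, Kcnh7 and Gm28928 were highest in dorsal excitatory neurons, Gm30382 and Dgkb in astrocytes and Slco1a4 in endothelial cells. Kcnh7, a potassium channel of the ether-à-go-go-related family, was at 821 ± 59.1 CPM in WT and 658 ± 47.7 in SOD1G93A mice, and these ranges did not overlap. Vwc2, a secreted BMP antagonist, was at 167 ± 8.94 and 135 ± 5.73 CPM, and Nell2, a secreted neuronal glycoprotein, at 229 ± 12.5 and 187 ± 10.6, both without overlap. Dgkb, a diacylglycerol kinase, was at 941 ± 65.9 and 778 ± 67.7 CPM. Slco1a4 is an endothelial transporter and was at 4.27 ± 2.75 and 1.36 ± 1.22 CPM. With equal cluster shares the log2 fold changes moved from -0.29 to -0.07 for Dgkb, from -0.39 to -0.16 for Gm28928, from -0.30 to -0.13 for Nell2 and from -0.33 to -0.21 for Kcnh7 (limma FDR of 0.569 or more). Over all 13 other settings, equal shares among them, Gm30382 ran from -0.64 to -0.44 and Vwc2 from -0.35 to -0.23, beside -0.49 and -0.31 otherwise. Slco1a4 was at -0.95 or lower in the 9 other settings that tested it.

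Lists of genes for transmission and excitability had 0 limma calls each, where 0.0329% of all genes were called. Of 16 AMPA, NMDA, kainate and delta receptor genes tested, 0 were higher and 1 lower at an unadjusted p under 0.05 (Grin2a, an NMDA receptor subunit, 903 to 808 CPM, log2 fold change -0.17), beside 3.98% higher and 2.73% lower among all genes, and the median was -0.06 beside 0.0042 for all genes. Of 16 GABA-A and glycine receptor genes 1 was lower (Glra2, -0.33), and of 6 metabotropic glutamate receptor genes 0. The 26 sodium and calcium channel genes had 1 lower (Scn1a, -0.16), and the 29 potassium channel genes 1 higher and 4 lower (among them Kcnh7 at -0.33, Kcnn2 at -0.17 and Kcnip1 at -0.22), which is 13.8% lower against 2.73% of all genes. DESeq2 called 1 of the 29 (3.45%, against 0.214% of all genes).

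Peptide and identity genes gave 0 calls as well. Of 15 dorsal and ventral transcription factors tested, 1 was higher (6.67%) and 3 lower (20%) at an unadjusted p under 0.05. Of 6 excitatory identity genes tested, 1 was higher (16.7%) and 0 lower at that p. Among all genes 3.98% were higher and 2.73% lower. Of 10 dorsal horn neuropeptide genes tested, 0 passed an unadjusted p under 0.05 in either direction, and Tac1 had a log2 fold change of -0.31 and Penk of 0.20. Of 28 receptor genes for peptides and amines 1 was higher (Nmur2, 0.48) and 2 lower (Tacr1, -0.44, and Oprk1, -0.37). Of 28 class markers 3 were higher and 4 lower, where all genes gave 3.98% and 2.73%, among them Car12 (0.55) and Nmur2, genes of cluster 19, and Maf (-0.41) and Adarb2 (-0.32), genes of cluster 17. Clusters 19 and 17 were higher and lower in share. With equal cluster shares in every mouse the log2 fold changes were 0.14 for Car12, 0.20 for Nmur2, 0.05 for Maf and -0.04 for Adarb2 (limma FDR of 0.953 or more), so that Maf turned direction. Tacr1 was at -0.40 and Trps1 at 0.16 (limma FDR = 0.891 and 0.946), beside -0.44 and 0.16 otherwise. Slc17a6 itself was at 121 and 111 CPM (log2 fold change -0.13, limma FDR = 0.812) and Ebf2 at 972 and 1063 (0.12, FDR = 0.911).

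Stress and protein handling lists gave 0 calls too. Of 20 genes of the unfolded protein and integrated stress response, 0 passed an unadjusted p under 0.05, and Hspa5, the main chaperone of the endoplasmic reticulum, was at 32.1 and 35.2 CPM. Of 21 heat-shock proteins and co-chaperones 1 was higher (Cryab, 0.32) with a median of 0.11, and of 31 proteasome subunits 1 was higher (Psmb7, 0.27) with a median of -0.04. Among 10 axon injury genes Nefm, a neurofilament subunit, was lower (-0.23), and among 9 activity-regulated genes Jun, Egr1 and Junb were higher (0.62 to 0.72) at levels below 7 CPM, where 3.98% of all genes were higher. Of the 31 nuclear transport genes Xpo1 was the only call, with Ranbp3 also higher at an unadjusted p under 0.05 (0.33) and a median of -0.07. Of the 15 Flrt, latrophilin, teneurin and Unc5 genes Flrt2 was the only call, beside Tenm2, a teneurin, at an unadjusted p under 0.05 (2340 to 2104 CPM, -0.16).

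Markers of other cell types were compared in these nuclei as well. All 7 oligodendrocyte markers (among them Mbp, Mobp, Mog, Mag, St18 and Mal) had estimates above 0 and an unadjusted p under 0.05, with a median log2 fold change of 0.67, 0 calls by limma and 5 by DESeq2, where all genes gave 3.98% higher at that p, 0.0329% called by limma and 0.214% by DESeq2. With the block that pairs mice by sex and pool, limma called 6 of the 7 (104 of all 12175 genes), and likewise 6 without cluster 6 (50 of 11999). Their summed level was 463 to 781 CPM in WT and 613 to 1245 CPM in SOD1G93A mice (means 539 and 831, 1.54-fold), higher in 5 of 6 pairs with overlapping ranges. This is 4.49% and 6.92% of the summed level in oligodendrocytes of both genotypes together, and none of the 7 was at 0. Oligodendrocytes made up 11.3% to 17.6% of the nuclei of a WT mouse and 6.93% to 27.5% of those of a SOD1G93A mouse.

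The summed levels of the other lists were as follows. The 6 astrocyte markers summed to 145 to 197 CPM in WT and 145 to 281 CPM in SOD1G93A mice (1.23-fold by the means, higher in 5 of 6 pairs), and of 5 tested 3 were higher at an unadjusted p under 0.05, with a median log2 fold change of 0.35. The 10 genes of inhibitory identity summed to 64.7 to 107 and 79.5 to 133 CPM, of which 7 were tested, all with estimates above 0 and 4 at an unadjusted p under 0.05 (median 0.49). Among all genes 3.98% were higher at that p. Neuron markers were even, at 3601 to 3881 and 3631 to 3917 CPM, and the 4 endothelial markers were at 7.61 to 28.8 and 5.74 to 14.8 CPM. The 5 microglia markers were at 27.9 to 64.5 and 33.7 to 70.9 CPM, the 4 of oligodendrocyte precursors at 234 to 365 and 209 to 380, the 4 of Schwann and meningeal cells at 2.54 to 4.47 and 3.03 to 12.3 (1.57-fold by the means, with 1 gene tested), and the 6 of motor neurons at 30.3 to 53.2 and 28.7 to 49.6. None of the genes of these lists was at 0 UMIs.

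Genes that oligodendrocytes express at 4 or more times the level of dorsal excitatory neurons were 5.07% of the genes tested, but 42.6% of the 484 genes higher and 0.301% of the 332 genes lower at an unadjusted p under 0.05. They were 1 of the 3 higher genes called by limma (Ninj2) and 17 of 20 called by DESeq2 (0.164% of all genes). With the block that pairs mice by sex and pool, limma called 82 higher genes, of which 76 were of this kind, and 39 of 44 were when the WT female of pool A was dropped. Their part in the other differences was not tested. Without the 309 nuclei richest in oligodendrocyte markers limma called 4 genes, Sod1 (1.06), Xpo1 (0.53), Flrt2 (-0.76) and Tspan18 (0.59), 0 of which were of this kind. That filter took a larger share of nuclei from each SOD1G93A mouse than from the WT mouse of its sex and pool. As it picks nuclei by oligodendrocyte markers, genes of this kind can fall by construction, and no conclusion is drawn from their absence. Without the 57 nuclei of cluster 6 limma called 50 genes, 42 higher and 8 lower, of which 38 of the higher ones were of this kind.

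**Figure D5:**
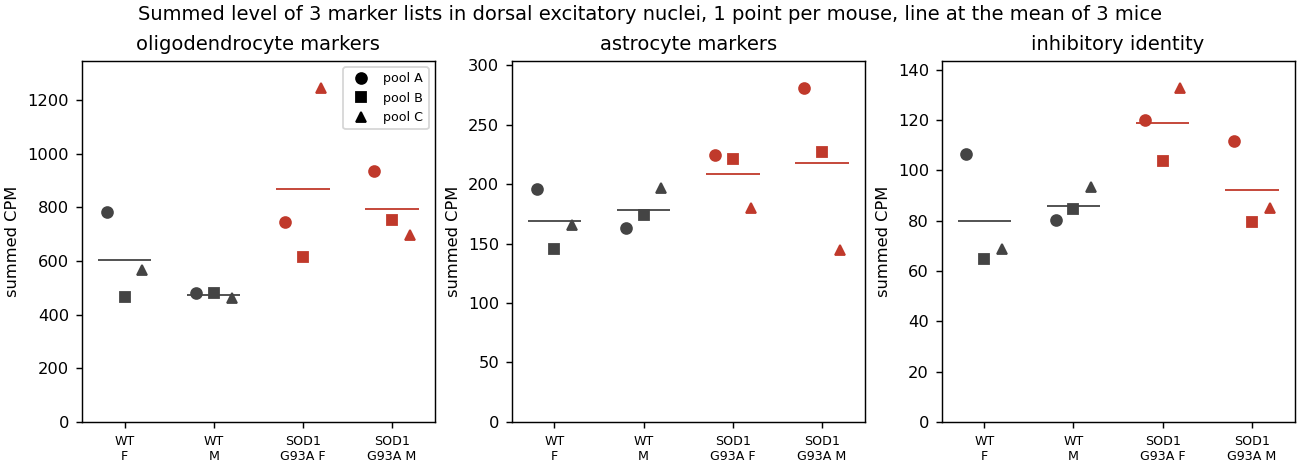
Summed level (CPM, axes from 0) of 7 oligodendrocyte, 6 astrocyte and 10 inhibitory identity genes in dorsal excitatory nuclei, with 1 point per mouse (F female, M male; circle, square and triangle for pools A, B and C) and a line at the mean of 3 mice. Oligodendrocyte markers run from 463 to 781 CPM in WT and from 613 to 1245 CPM in SOD1G93A mice, with the female WT mouse of pool A highest among WT.

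Whether a genotype difference was particular to dorsal excitatory neurons was tested within mice, as the difference of log2 CPM to the other neurons with a sub-type or the label unclear. Of 12140 genes 0 passed an FDR of 0.1 (0%) with limma, and 713 had an unadjusted p under 0.05 (5.87%). In the other neurons alone, Xpo1 (0.59, limma FDR = 0.00222) and Sod1 (1.37, limma FDR = 4.04e-04) were higher and the only calls of 14959 genes (0.0134%), while Flrt2 was at -0.45 (limma FDR = 0.577). The difference between dorsal excitatory and other neurons was -0.29 for Flrt2 (SE 0.15, limma FDR = 0.855), -0.05 for Xpo1 (SE 0.08, limma FDR = 0.950) and -0.24 for Sod1 (SE 0.12, limma FDR = 0.855). Against dorsal inhibitory neurons alone, 0 of 10425 genes passed (0%) and 513 had an unadjusted p under 0.05 (4.92%).

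Female and male mice differed in 11 of 12175 genes (0.0903%) by limma at an FDR of 0.1, and in 616 at an unadjusted p under 0.05 (5.06%). Of these, 8 are on the sex chromosomes, where 416 genes were tested (1.92%). Xist, the RNA that silences the inactive X, ran from 701 to 999 CPM in females and from 9.30 to 51.3 CPM in males, and Uty from 215 to 246 CPM in males and 0.876 to 10.6 CPM in females. These ranges were far apart in each case, so that all 12 mice matched their labelled sex. Tsix, Kdm6a and Kdm5c were also higher in females, and Kdm5d, Eif2s3y and Ddx3y in males.

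Outside the sex chromosomes 3 of 11759 genes passed (0.0255%), all higher in females. Chrna7, the alpha 7 nicotinic acetylcholine receptor, was at 49.0, 75.3 and 124 CPM (lowest, median and highest) in females and 35.8, 44.0 and 74.1 CPM in males. The ranges overlapped, and the log2 fold change was 0.71 (SE 0.12, limma FDR = 0.0239). Col5a2, a fibrillar collagen chain, had 28.8, 56.3 and 61.1 CPM in females and 20.3, 33.0 and 47.5 CPM in males (0.63, SE 0.12, limma FDR = 0.0917). Snrpn, an imprinted gene of RNA splicing, had 70.9, 89.6 and 106 CPM in females and 45.1, 56.3 and 88.8 CPM in males (0.53, SE 0.11, limma FDR = 0.0917). These genes were highest in different clusters, Chrna7 in cluster 46 (232 CPM), Col5a2 in cluster 35 (402 CPM) and Snrpn in cluster 23 (193 CPM). Chrna7 and Snrpn were not confined to these clusters. In WT mice Snrpn was at 179 CPM in cluster 25 beside 211 in cluster 23, and Chrna7 at 186 in cluster 13 beside 225.5 in cluster 46. The share of cluster 35 was 3.00% to 7.84% in females and 2.47% to 5.25% in males, and its part in the Col5a2 difference was not tested. Without the pool term 0 of the 3 passed. Unscaled libraries, a minimum count of 30 and eBayes without the robust option also ended the calls of Snrpn and Col5a2, and no count filter and no cluster 6 that of Snrpn. Dropping 1 mouse ended the call of Snrpn and that of Col5a2 in 9 of 12 cases each (FDR up to 0.466 and 0.456), and that of Chrna7 in 2 (the WT and SOD1G93A females of pool C). Snrpn kept its call when the WT male of pool B, the SOD1G93A female of pool B or the SOD1G93A male of pool A was dropped, and Col5a2 when the WT female of pool A or B or the SOD1G93A female of pool B was. Without the female WT or the female SOD1G93A mouse of pool C, 6 genes in all passed, and without the male WT or male SOD1G93A mouse of pool C, 7.

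The genotype effect differed between the sexes for 1 of 12175 genes (0.00821%), 2600014E21Rik, a long noncoding RNA gene at chr2:75138843-75317820 (mm10), and 447 genes had an unadjusted p under 0.05 (3.67%). The RNA was at 6.51, 6.25 and 6.51 CPM in female WT mice (pools A, B and C) and 37.7, 25.4 and 23.5 CPM in female SOD1G93A mice. In males it was at 12.8, 8.60 and 4.06 CPM in WT and 5.48, 7.07 and 9.36 CPM in SOD1G93A mice. The female groups did not overlap and the male groups did, and the effect in males minus that in females was -2.57 on the log2 scale (SE 0.42, limma FDR = 0.0779). It was a leading gene of cluster 35 (196 CPM there against 3.00 in the other nuclei), whose share was 3.81% to 6.13% in female WT and 3.00% to 7.84% in female SOD1G93A mice. Outside it, cluster 26 had 1 UMI of the RNA in WT and 42 in SOD1G93A mice (0.769 and 47.3 CPM), and cluster 6 had 1 and 14, while cluster 35 had 160 and 125 (163 and 265 CPM). edgeR did not call the gene (FDR = 0.130). When the WT female of pool B was dropped, 16 genes passed, and 0 passed when the WT female of pool C, the WT male of pool A or B, or any of the SOD1G93A females was. The call of 2600014E21Rik itself was lost in these 6 cases and without the SOD1G93A male of pool A.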

How the data were processed

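Nuclei of frozen lumbar cord from 12 mice were sequenced by droplet RNA-seq (10x) in 3 hashtagged pools. Per the labels and the study's methods, the authors aligned reads to an mm10 pre-mRNA reference with Cell Ranger 3.1 (STAR 2.5.1b), demultiplexed mice with Seurat 4.0.3, removed hashtag doublets and nuclei with few genes or many mitochondrial reads, and deposited raw UMI counts with a table of nuclei. That table gives the deposited count totals, the percent of mitochondrial UMIs, and the mapping score, a fraction from 0 to 1 that the authors obtained when they mapped neurons to reference classes. The deposited normalised matrix was not used. Doublets within a mouse were not marked by any source used here.

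Counts of the dorsal excitatory nuclei were summed per mouse. Genes passing filterByExpr (minimum count 10) were tested with limma 3.58.1 (voom with TMMwsp factors and robust eBayes) in R 4.3.3, with sex and genotype groups and pool as terms, and Benjamini-Hochberg adjusted p-values (FDR, threshold 0.1). Shares were tested with edgeR 4.0.16 (threshold 0.05). The difference to other neurons was fitted per mouse on log2 CPM (prior count 2). edgeR, DESeq2 1.42.0, other factors and filters, the block and single mice left out were alternatives. Scripts were tested on simulated data. Same-pool mice of different groups had a median correlation of deviations of 0.173, against -0.0780 across pools, and the labels make the pool a shared batch, so that the pool term pairs the mice. Replicates are separate animals.

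Genes named are those past the threshold, up to 8 of smallest p among those moving one way in 6 of 6 pairs, the 15 highest ratios to the next sub-type, 3 leading genes per cluster, and list members with an unadjusted p under 0.05; others were chosen after their values were seen. The population, lists and tests were chosen with earlier results of these data known. Some genes of the lists are counted but not reported here by name.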

Additional observations from a re-analysis of the deposited data

Results flagged for a closer look

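In 88 groups of 6 mice, 10 had 1 mouse set apart from the other 5 by a gap above Dixon's 95% critical value, where chance gives about 1 in 20, or 4.4. In WT mice these were Ttyh2 in the female of pool A (13.0 CPM), the summed oligodendrocyte markers in the same mouse (781 CPM) and the share of cluster 13 in the male of pool C (14.5%). In SOD1G93A mice they were Flrt2 (74.9 CPM), Chrna7 (103 CPM) and the share of cluster 46 (4.90%), all in the female of pool C. The others were Gm30382 in the male of pool C (36.8 CPM), Gm28928 in the male of pool B (2823 CPM), Vwc2 in the female of pool B (147 CPM) and Slco1a4 in the male of pool A (3.82 CPM).

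The genotype effect on 2600014E21Rik differed between the sexes, by -2.57 on the log2 scale (limma FDR = 0.0779), with 3 of 3 SOD1G93A females above the WT females and overlapping males.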

How the results depend on the processing

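Against 4 genotype calls, limma gave 7 with unscaled libraries, 12 without a count filter, 12 without the robust option, 11 with equal cluster shares, 9 with equal nuclei and 50 without cluster 6, and DESeq2 gave 26. With no replicate block (no pool term) 2 genes passed, and with a block of sex and pool, which pairs each WT with a SOD1G93A mouse, 104 (82 higher, 22 lower). Leaving out 1 mouse gave 3 to 56. The sex comparison gave 6 genes without the pool block and 6 to 14 without 1 mouse. The interaction gave 0 with unscaled libraries, a minimum count of 30, edgeR, no pool block, the block of sex and pool, or no cluster 6, and 0 to 16 without 1 mouse. Cluster shares gave 0 calls with limma and 0 to 3 without 1 mouse. The share of neurons (0.02) became -0.26 as a share of all nuclei (edgeR FDR = 0.211) and ran from -0.0627 to 0.0915 without 1 mouse, and the difference in UMIs per nucleus ran from -309 to 561 and in genes from -49.7 to 137. Ninj2 became -0.17 without the nuclei richest in oligodendrocyte markers. The cause of these changes was not tested. Over 25 single values and 560 settings, 401 kept their direction and side of the threshold, 84 fell short, 74 passed it and 1 reversed. The comparison with other neurons gave 0 calls in all settings. Removing cluster 6 and the oligodendrocyte-rich nuclei were chosen after seeing the data.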
